A study of Mus musculus with 13 samples.

Results

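The genes of major histocompatibility complex (MHC) class II presentation were described in all 13 libraries of a study of neuroinflammation in mice. They are 10 of the 21073 genes in the deposited table, taken by symbol: Cd74, H2-Aa, H2-Ab1, H2-Eb1, H2-DMa, H2-DMb1, H2-DMb2, H2-Oa, H2-Ob and Ciita. All 10 were found in the table. The choice was made by gene name and not by a measured value, but earlier results of these data were known.

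Class II molecules are cell-surface pairs of an alpha and a beta chain that show peptides from engulfed proteins to CD4+ T cells. The invariant chain, Cd74, guides new pairs into endosomes, where H2-DM removes its last fragment and lets other peptides bind, and H2-O restrains H2-DM. CIITA, encoded by Ciita, is the coactivator without which the classical chain genes H2-Aa, H2-Ab1 and H2-Eb1 are barely transcribed. In mice it is active in dendritic cells and B cells, and interferon gamma switches it on in macrophages and microglia. Mouse T cells are known for making little class II.

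All mice were on the C57BL/6J background and were immunized with the myelin peptide MOG35-55 in complete Freund's adjuvant (CFA), which primes T cells against myelin. DKI mice are deficient in STAT5 tetramers. For the myeloid groups, DKI mice also received pertussis toxin, which together with the peptide induces experimental autoimmune encephalomyelitis (EAE), a mouse disease used to model multiple sclerosis. Bone marrow monocytes, spinal cord monocytes and spinal cord monocyte-derived antigen-presenting cells (APCs) were sorted on day 14, with 1 library each. No wild-type myeloid library was analysed here, so a myeloid value cannot be set against a normal genotype. For the Th17 groups, wild-type (WT) and DKI mice got no toxin. Their spleen and lymph node cells were taken on day 14 and grown with the peptide under Th17 conditions, and CD4+ T cells were sorted after 3 days. The Th17 groups were WT (n = 2), DKI (n = 2), and a second set of DKI cultures without added CCL17 (n = 3) or with it (n = 3). CCL17 is a chemokine that attracts T cells through the receptor CCR4. The labels do not say whether libraries of a group come from separate mice or from pooled mice, so p-values measure the spread between these libraries, which may be technical.

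Estimated depth was 12600000 to 20100000 assigned reads in Th17 libraries, 24300000 to 26400000 in cord libraries and 31800000 in the marrow library. Levels are given as log2(RPKM + 1), where RPKM is the read number scaled to gene length and to the assigned reads of the library. The summed RPKM of 8 T cell markers was 1696 to 2420 in Th17 libraries and 0.478 to 23.5 in myeloid ones. That of 11 monocyte and macrophage markers was 16190 to 22990 in myeloid libraries. General markers of T cells and of monocytes and macrophages were therefore present in the libraries so labelled. No Th17 marker was summed, and the second sum does not separate cord APCs (16190) from cord monocytes (16530).

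In GRCm38 (mm10), 8 of the members lie together on chromosome 17. The classical chain genes are H2-Ab1 (Entrez 14961, positions 34263227 to 34269418), H2-Aa (14960, 34282744 to 34287823) and H2-Eb1 (14969, 34305867 to 34316674). The H2-DM genes are H2-DMa (14998, 34119693 to 34139101), H2-DMb2 (15000, 34143229 to 34151553) and H2-DMb1 (14999, 34153191 to 34160229). The H2-O genes are H2-Oa (15001, 34092379 to 34095234) and H2-Ob (15002, 34238905 to 34245908). Ciita (12265) lies on chromosome 16 from 10480014 to 10531064.

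Class II promoters carry a conserved module in which the RFX complex binds an X box and NF-Y binds a Y box downstream of it, and CIITA docks on the assembled proteins. Promoter windows from RefSeq on GRCm38.p6, reaching from 250 bases before to 50 bases after a transcript start, were held for 7 of the 10 members in 8 windows. Windows of 6 members held TGATTGG, the inverted CCAAT letters of a Y box, with ATGATG starting 21 to 24 bases before it in 4 of them and GCAAC starting 31 bases before it in the other 2. These stretches are shown because they are the sequence that genes of unlike patterns in these libraries have in common. The genome positions are chr17:34287861-34287916 on the minus strand for H2-Aa, and on the plus strand chr17:34305771-34305818 for H2-Eb1, chr17:34153092-34153140 for H2-DMb1, chr17:34145121-34145169 for H2-DMb2, chr17:34092291-34092346 for H2-Oa and chr17:34238813-34238858 for H2-Ob. Each is written 5′ to 3′ on the strand of its gene, and capitals mark the upstream match and then TGATTGG.
H2-Aa: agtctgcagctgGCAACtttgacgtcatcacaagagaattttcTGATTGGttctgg
H2-Eb1: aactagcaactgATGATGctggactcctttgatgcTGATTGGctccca
H2-DMb1: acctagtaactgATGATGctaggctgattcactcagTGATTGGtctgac
H2-DMb2: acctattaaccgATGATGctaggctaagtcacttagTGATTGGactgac
H2-Oa: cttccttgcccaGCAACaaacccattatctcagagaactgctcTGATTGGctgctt
H2-Ob: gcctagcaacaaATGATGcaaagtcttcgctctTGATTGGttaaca

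The TGATTGG match began 45 bases before the start in H2-Oa, 50 in H2-Aa, 59 in H2-Ob, 61 in H2-Eb1, 63 in H2-DMb1 and 92 in H2-DMb2. H2-DMb1 and H2-DMb2 have the same spacing of 24 bases between the matches. Of 32851 windows of the same length over all genes, 7.82% held TGATTGG on either strand, 11.2% held ATGATG and 35.2% held GCAAC, and these motifs do not overlap in the stretches shown. The combination, with ATGATG or GCAAC starting up to 40 bases before TGATTGG on the strand of the gene, was in 61 windows (0.186%). These letters were written down after the member windows had been read, and a match describes letters, not binding. The combination was not in either window of H2-DMa.

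Across the libraries, the chain genes and Cd74 covered a wide range. The plot of levels by library shows all members in all libraries.

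**Figure D1:**
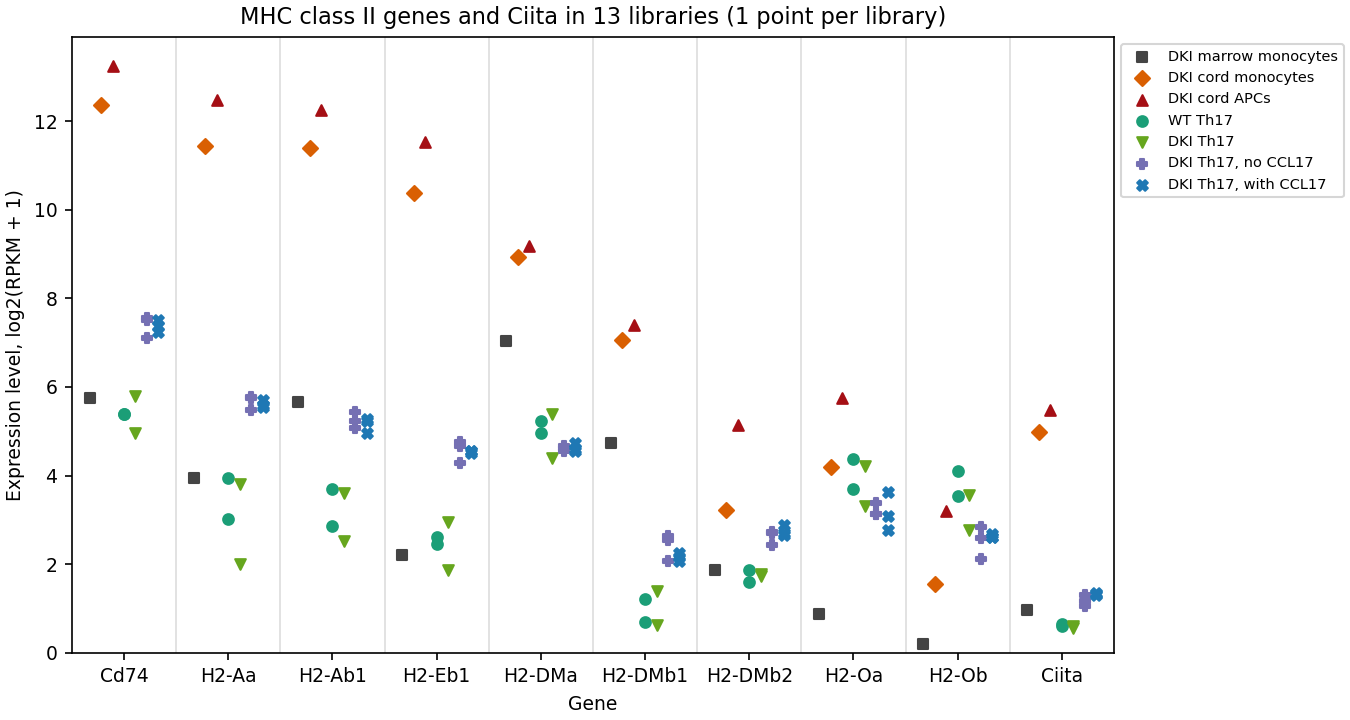
Level of each of the 10 class II genes as log2(RPKM + 1) in each of the 13 libraries, 1 point per library, with a marker shape for each group. Cd74 reached 13.25 in the cord APC library and 12.36 in cord monocytes, and lay between 4.97 and 7.55 in the Th17 libraries.

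Spinal cord monocytes stood far above bone marrow monocytes in classical class II and Cd74 RNA. The question was how monocytes of the inflamed cord differ from their marrow counterparts, and with 1 library each no test is possible. The chain genes, Cd74 and Ciita were 31.5 to 371-fold higher in the cord by RPKM. The DM genes were 3.11 to 5.16-fold higher. In bulk libraries fewer cells of a type and less RNA per cell cannot be told apart.

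Cd74 (Entrez 16149, chromosome 18 from 60803849 to 60812652) was at 5.75 in marrow monocytes and 12.36 in cord monocytes, a 99.7-fold ratio of RPKM (95% interval 95.8 to 104, which like all intervals of the myeloid libraries covers counting error only). H2-Aa, the A alpha chain, was at 3.94 and 11.43, a 192-fold ratio (176 to 210). H2-Ab1, its beta partner, was at 5.66 and 11.38, a 54.0-fold ratio (51.6 to 56.5). The pair was thus at unequal levels in marrow and nearly level in the cord.

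H2-Eb1, the E beta chain, was at 2.20 and 10.39, a 371-fold ratio (322 to 431) that rests on 191 estimated reads in the marrow. Its usual partner H2-Ea was listed at 0 in 10 of the 13 libraries and at no more than 0.43 in the others. C57BL/6 mice are known to lack a working H2-Ea gene. Ciita was at 0.98 and 4.98, a 31.5-fold ratio (27.4 to 36.3).

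H2-DMa, the alpha chain of the peptide editor, was already high in marrow, at 7.04 against 8.92 in the cord, a 3.70-fold ratio (3.60 to 3.80). H2-DMb1 was at 4.74 and 7.06, a 5.16-fold ratio (4.83 to 5.50). H2-DMb2, a second beta chain gene, was at 1.88 and 3.22, a 3.11-fold ratio (2.52 to 3.88). H2-DMb1 and H2-DMb2 transcripts share 369 stretches of 50 bases, 27.2% of those in H2-DMb1 and 21.2% of those in H2-DMb2, so reads can be split between them and both values are uncertain. No other pair of members shared one.

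The H2-O genes, which restrain the editor, were scarce in marrow. H2-Oa was at 0.87 and 4.20, a 21.0-fold ratio (14.3 to 31.3) from 29 estimated marrow reads. H2-Ob was at 0.19 and 1.55, a 13.8-fold ratio (7.57 to 27.1) from 12. H2-Ob was the lowest of the 10 members in the cord as in the marrow.

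Of the 9 members that reached RPKM of 5 in 1 or both libraries, 7 differed by 4-fold or more (a log2 difference of at least 2), all toward the cord. Among all 8182 genes at that level 6.23% were that much higher and 5.13% lower (11.4% in all). The median log2 difference was 4 for those 9 members and -0.37 for all genes. H2-DMa at 1.88 and H2-DMb2 at 1.34 fell short of 4-fold, and H2-Ob was under the RPKM minimum. H2-Eb1, H2-DMb2, H2-Oa and Ciita reached that minimum in the cord library only, so the count and the median describe these libraries and are no test.

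Ranked by RPKM among the genes of its library, Cd74 stood at place 1492 in marrow monocytes and at place 5 in cord monocytes. H2-Aa moved from 4759 to 12, H2-Ab1 from 1615 to 14 and H2-Eb1 from 8219 to 35. Cd74 and the classical chains took 0.0300% of summed RPKM in marrow and 2.68% in the cord.

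Genes that work with class II did not all differ alike. Their counts stand beside the 6.23% of all genes that were 4-fold higher in cord monocytes. Genes could reach the RPKM minimum through the cord library alone, so the counts for these lists are no test. Of 13 genes of class II antigen processing, 5 were 4-fold higher in cord monocytes, with a median log2 difference of 0.30. They included the endosomal proteases Lgmn (3.30), Ctsl (2.06) and Ctss (2.04) and the tetraspanin Cd63 (2.65). Of 16 regulators of Ciita or of class II promoters at the RPKM minimum, 3 were 4-fold higher, and the median was 0.18. They were the repressor Prdm1 (4.58), the cytokine signalling inhibitor Socs1 (4.34) and the interferon-induced factor Irf1 (2.72).

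Of 12 interferon gamma response genes 9 were 4-fold higher in cord monocytes, with a median of 3.40, beside 6.23% of all genes. The list overlaps that of the regulators, and its genes too could enter the count through the cord library alone. The chemokines Cxcl9 and Cxcl10 differed by 7.55 and 6.74 and the GTPase gene Gbp4 by 4.36. Of 8 costimulatory and CD1 genes 5 were 4-fold higher, with a median of 3.02, including Cd274 (7.02), Cd83 (6.55) and Cd40 (3.38). All 5 neighbours of the members on chromosome 17 at the RPKM minimum were higher, beside 2575 of 8182 genes. Their median was 1.10, against -0.37 for all genes. They reached at most 1.46 (Tap2, the class I peptide transporter), and none of 5 was 4-fold higher, beside 6.23% of all genes.

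Summed markers of other cells were also higher in the cord libraries, though not every marker was. The summed RPKM of 10 microglia markers was 191 in marrow monocytes, 512 in cord monocytes and 1308 in cord APCs. That of 11 dendritic cell markers was 27.5, 61.5 and 201, and that of 12 B cell markers 8.15, 9.50 and 20.5, with 5 B cell markers at 0 in the marrow. Of 2 B cell markers at the RPKM minimum, 1 was higher in cord than in marrow monocytes and 1 lower. Of 5 dendritic cell markers at that level 3 were higher and 2 lower, and all 8 microglia markers were higher, beside 2575 of 8182 genes. Microglia, dendritic cells and B cells can carry class II, and their part in the cord values was not tested.

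**Figure D2:**
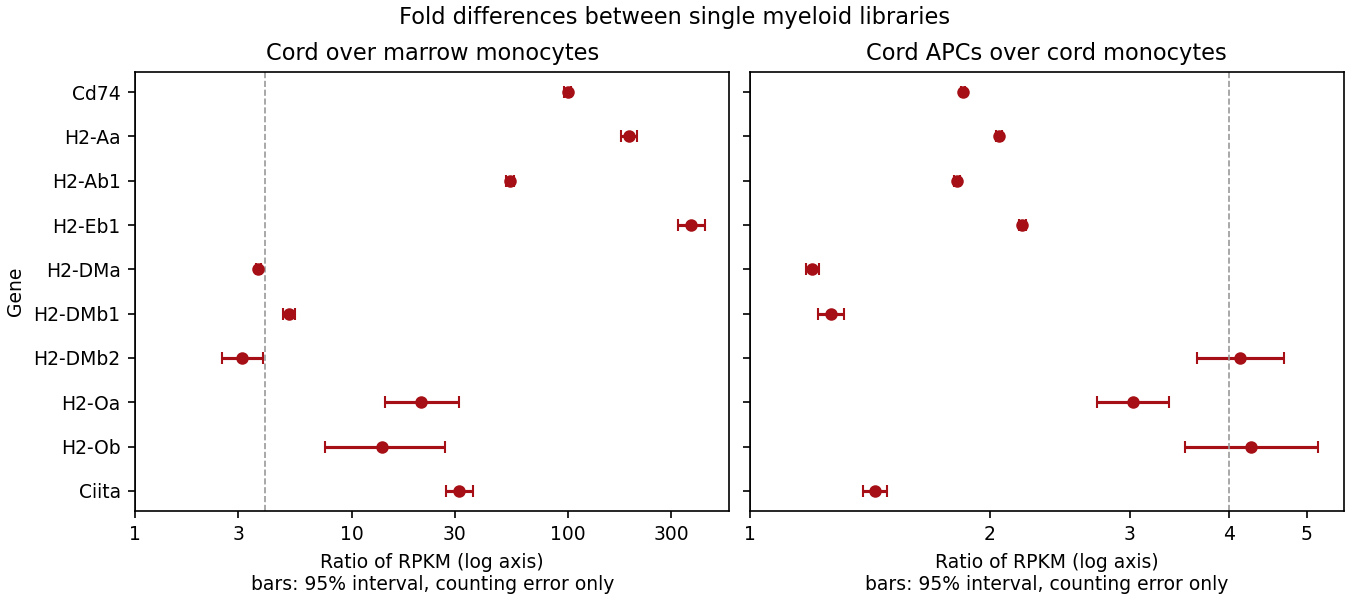
Ratio of RPKM for each member on log axes, spinal cord over bone marrow monocytes in one panel and spinal cord APCs over spinal cord monocytes in the other, with exact 95% intervals that cover counting error only. Ratios span 3.11 to 371 in the first comparison and 1.20 to 4.26 in the second.

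Spinal cord APCs carried more RNA than spinal cord monocytes for all 10 members, by smaller factors. The question was what sets the monocyte-derived APCs apart from monocytes of the same tissue. The classical chains and Cd74 were 1.82 to 2.20-fold higher. The members with the largest ratios were the low ones, H2-Ob, H2-DMb2 and H2-Oa.

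Cd74 was at 13.25 in APCs and 12.36 in cord monocytes, a 1.85-fold ratio (95% interval 1.84 to 1.86). H2-Aa was at 12.47 and 11.43, H2-Ab1 at 12.25 and 11.38, and H2-Eb1 at 11.52 and 10.39, with ratios of 2.05, 1.82 and 2.20. Ciita was at 5.48 and 4.98, a 1.44-fold ratio (1.39 to 1.49). The ratio of Ciita was thus below those of the chain genes and Cd74.

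H2-DMa was at 9.18 and 8.92, a 1.20-fold ratio (1.18 to 1.22), and H2-DMb1 at 7.40 and 7.06, a 1.26-fold ratio (1.22 to 1.31). H2-DMb2 was at 5.14 and 3.22, a 4.12-fold ratio (3.64 to 4.69). H2-Oa was at 5.74 and 4.20, a 3.02-fold ratio (2.73 to 3.36), and H2-Ob at 3.20 and 1.55, a 4.26-fold ratio (3.51 to 5.17). The intervals of H2-DMb2, H2-Oa and H2-Ob lay above those of H2-DMa and H2-DMb1.

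On the log2(RPKM + 1) scale 0 of 10 members differed by 2 or more, against 0.24% of 7499 genes that were that much higher and 0.08% lower (0.32% in all). H2-DMb2 came nearest with 1.92. The median was 0.96 for the members and 0.03 for all genes. With a pseudocount of 0.1 in place of 1, 2 members passed. Cd74 stood at place 4, H2-Aa at 8, H2-Ab1 at 9 and H2-Eb1 at 11 in the APC library, and with the classical chains Cd74 took 5.11% of its summed RPKM.

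The interferon gamma response did not go the same way as the members here. All 12 of its genes were lower in APCs than in cord monocytes, beside 3371 of 7499 genes in all. The median of the 12 was -0.69, with Cxcl10 at -1.26. None of them was 4-fold lower. Of 13 processing genes 11 were higher (median 0.49), beside 4127 of 7499 genes. Cd63 was at 1.14 and Ctsd, a lysosomal protease, at 1.05. The neighbouring genes Tap1, Tap2, Psmb8 and Psmb9 were at -0.16, -0.20, -0.08 and -0.13.

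Among 6 dendritic cell markers at the RPKM minimum, 2 were 4-fold higher in APCs, beside 0.24% of all genes. They were the homing receptor Ccr7 (3.86) and the actin bundler Fscn1 (2.85). Genes could reach that minimum through the APC library alone, so such counts are no test. All 9 microglia markers at that level were higher, beside 4127 of 7499 genes, with a median of 1.53, and Tmem119 was at 1.66. The classical monocyte marker Ly6c2 was 4-fold lower (-2.25). The part of these cells in the APC values was not tested.

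Ratios between members also differed between groups. The sum of H2-Oa and H2-Ob per sum of the H2-DM genes was 0.00606 in marrow monocytes, 0.0308 in cord monocytes and 0.0776 in cord APCs. In Th17 libraries the same ratio was 0.360 to 1.03. Every Th17 library was thus above every myeloid library, with no test since the myeloid groups have 1 library each.

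Cd74 per summed classical chains was 0.782, 0.777 and 0.723 in marrow monocytes, cord monocytes and cord APCs, and 1.29 to 2.89 in Th17 libraries. H2-Ab1 per H2-Aa was 3.45 in marrow, 0.968 in cord monocytes and 0.858 in APCs, and 0.654 to 1.58 in Th17 libraries. Marrow monocytes were therefore the only one of the 13 libraries with H2-Ab1 over 1.58 times H2-Aa. These ratios compare RPKM, which is scaled to gene length.

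**Figure D3:**
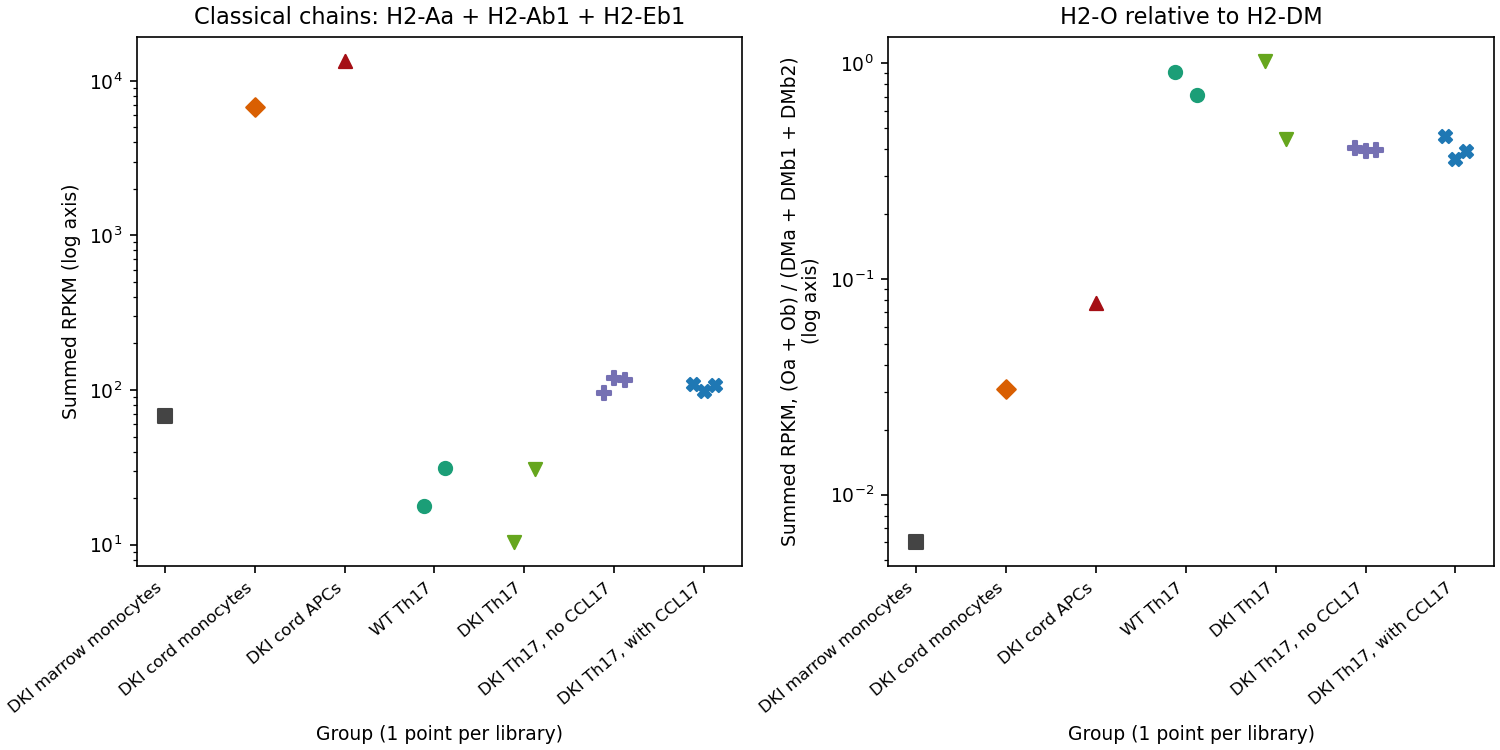
Summed RPKM of H2-Aa, H2-Ab1 and H2-Eb1 (left) and the ratio of summed H2-O to summed H2-DM RPKM (right) in each of the 13 libraries on log axes, 1 point per library by group. The classical sum was 67.4 in marrow monocytes, 6766 in cord monocytes and 13470 in cord APCs. H2-O per H2-DM was 0.00606 to 0.0776 in the myeloid libraries and 0.360 to 1.03 in the Th17 libraries.

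In Th17 cells, no class II gene passed the test for a difference between DKI and WT. This comparison asks whether loss of STAT5 tetramers changes expanded T cells. The 2 DKI libraries lay far apart for several chain genes, and for each member the DKI and WT libraries overlapped. Among all genes 39.9% did not overlap.

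Cd74 was at 5.39 and 5.38 in the WT libraries, and at 4.97 and 5.80 in the DKI ones. H2-Aa was at 3.01 and 3.93, then 2.01 and 3.81. H2-Ab1 was at 2.85 and 3.70, then 2.53 and 3.61. DKI replicate 1 held the lowest value of the 4 libraries for Cd74, H2-Aa and H2-Ab1.

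For H2-Eb1 the WT libraries were at 2.46 and 2.60, the DKI ones at 1.86 and 2.94. H2-DMa was at 4.96 and 5.23, then 4.39 and 5.38. H2-DMb1 was at 1.21 and 0.69, then 0.64 and 1.40, and H2-DMb2 at 1.59 and 1.88, then 1.79 and 1.73. DKI replicate 1 was lowest again for H2-Eb1, H2-DMa and H2-DMb1, but not for H2-DMb2.

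For H2-Oa the WT libraries were at 4.38 and 3.70, the DKI ones at 4.23 and 3.32. H2-Ob was at 3.54 and 4.10, then 2.77 and 3.56. Ciita was at 0.60 and 0.65, then 0.61 and 0.57, below RPKM of 1 in all 4 libraries, and was not tested. By level, Cd74, H2-DMa, H2-Oa and H2-Ob stood above the remaining members in WT replicate 1 and DKI replicate 1. In the other libraries they did not, with H2-Aa above H2-Oa in WT replicate 2 (3.93 and 3.70) and DKI replicate 2 (3.81 and 3.32).

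With limma and Benjamini-Hochberg adjustment over 11078 genes, 0 of the 9 tested members and 0 genes in all (0%) were called at an adjusted p under 0.05, while 1879 genes had an unadjusted p under 0.05. H2-Ob differed by -0.65 (SE 0.30, 95% interval -1.34 to 0.04, limma adjusted p = 0.312) and H2-Aa by -0.56 (SE 0.50, -1.69 to 0.58, adjusted p = 0.58). Cd74 differed by -0.00 (SE 0.25, -0.58 to 0.57, adjusted p = 0.993). The median difference was -0.20 for the 9 members and 0.03 for all genes.

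DKI replicate 2 decided 2 calls. Without it, H2-Aa differed by -1.46 (limma adjusted p = 0.0426) and H2-DMa by -0.71 (adjusted p = 0.0299), and 580 genes were called. Without DKI replicate 1, H2-Aa was at 0.34, H2-DMa at 0.29, H2-Ab1 at 0.34, H2-Eb1 at 0.41 and Cd74 at 0.41, the other direction. In both fits the remaining DKI library is assumed to vary like the other groups.

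Other lists gave no called gene either. All 11 tested interferon gamma response genes had differences below 0, with a median of -0.37, beside 5019 of 11078 genes below 0. Of 9 monocyte and macrophage markers 8 were below 0, with a median of -0.99, and their sum was 81.8 to 172 in WT and 62.0 to 72.9 in DKI. B cell marker sums were 14.5 to 20.1 in WT and 9.80 to 20.7 in DKI, lowest in DKI replicate 1, where the chain genes were lowest too. The part of such cells in the member values was not tested.

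**Figure D4:**
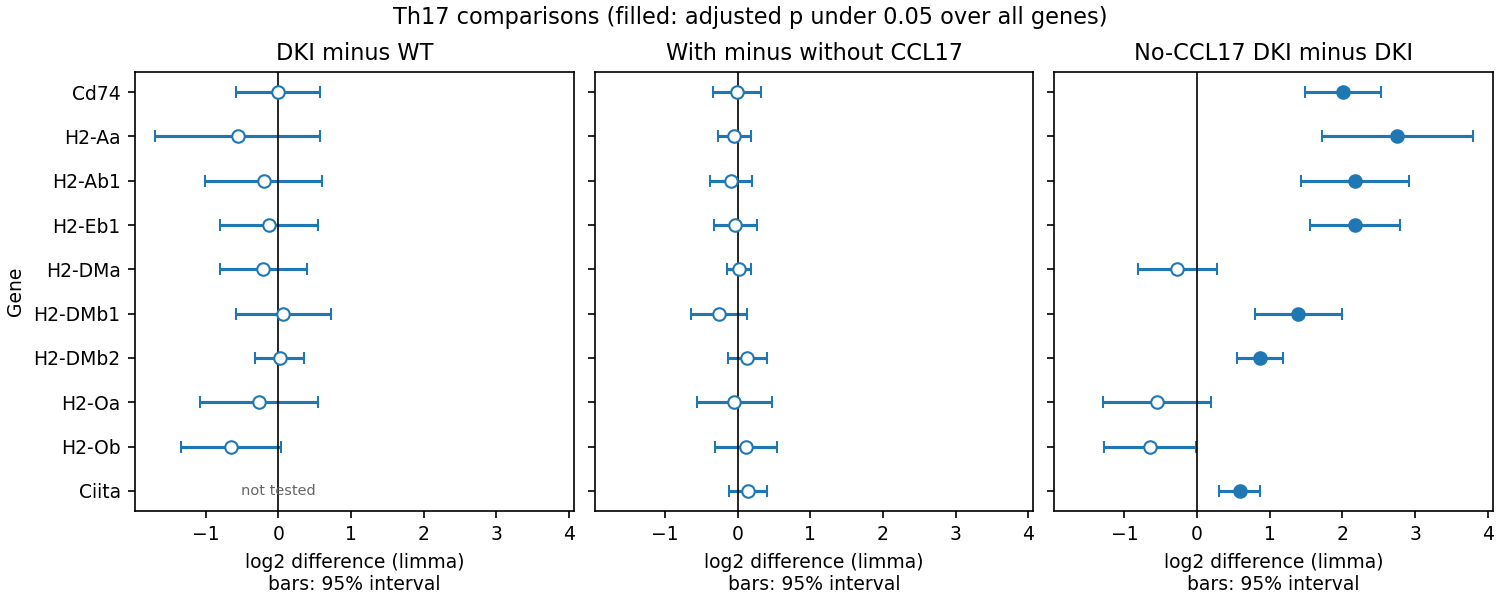
Log2 differences of the members with their 95% intervals from limma for DKI against WT, with against without CCL17, and the second DKI set without CCL17 against the DKI libraries, with filled points for an adjusted p under 0.05. Intervals of the DKI and CCL17 comparisons cross 0 for every tested member, and 7 members are called above 0 in the comparison of sets. Of these, H2-DMb1 and Ciita entered the test through the second set.

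Adding CCL17 to DKI cultures gave no called class II gene. The comparison asks whether the chemokine acts on the T cells during expansion. The 2 groups overlapped for all 10 members. Here 9.49% of all genes did not overlap.

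Cd74 was at 7.09, 7.51 and 7.55 without CCL17 and at 7.25, 7.37 and 7.51 with it. H2-Aa was at 5.48, 5.77 and 5.75, then 5.71, 5.56 and 5.59. H2-Ab1 was at 5.08, 5.43 and 5.24, then 5.23, 4.96 and 5.27. These values lie within a narrow band in both groups.

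H2-Eb1 was at 4.29, 4.67 and 4.76 without CCL17 and at 4.52, 4.55 and 4.55 with it. Ciita was at 1.05, 1.31 and 1.17, then 1.35, 1.30 and 1.33. H2-DMb1 was at 2.06, 2.55 and 2.64, then 2.25, 2.15 and 2.08, and H2-DMb2 at 2.73, 2.44 and 2.71, then 2.89, 2.66 and 2.71. The spread of H2-DMb1 was wider without CCL17 than with it, a description over 3 libraries each.

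H2-DMa was at 4.56, 4.62 and 4.66 without CCL17 and at 4.74, 4.56 and 4.60 with it. H2-Ob was at 2.13, 2.60 and 2.84, then 2.61, 2.69 and 2.61. H2-Oa was highest in the library numbered 1 of both groups, at 3.38 and 3.63, and between 2.78 and 3.14 in the rest. Over the 4 Th17 groups, the library numbered 1 held the highest H2-Oa in 4 and the lowest H2-Eb1 in 4. It held the lowest Cd74, H2-Aa, H2-Ab1, H2-DMa and H2-Ob in 3 each. H2-DMb2 was highest there in 3 and lowest in 1, and H2-DMb1 and Ciita were highest in 2 and lowest in 2. Several members thus go with the number and others do not, as was seen only in the values. With 2 or 3 libraries in a group these counts are no test.

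With limma over the 11297 genes tested in these 6 libraries, 0 of 10 members and 0 genes in all (0%) were called, and 411 genes had an unadjusted p under 0.05. The difference was -0.01 for Cd74 (95% interval -0.34 to 0.33), -0.05 for H2-Aa (-0.27 to 0.18), -0.09 for H2-Ab1 (-0.38 to 0.19) and 0.15 for Ciita (-0.11 to 0.41). It was -0.25 for H2-DMb1 (-0.64 to 0.13) and -0.05 for H2-Oa (-0.57 to 0.47). The limma adjusted p was 0.999 for each member, and the median was -0.02 for the members and -0.01 for all genes.

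With the replicate number as a block, limma called 2 genes, the T cell receptor joining segments Traj31 (1.05) and Traj20 (1.29), each with an adjusted p of 0.025. Neither is a member, and they were named after their values were seen. In the fit without the block, 6119 of 11297 genes were below 0 and 5178 above. All 13 processing genes were below 0, with a median of -0.23 and Ctsl at -0.43. All 11 tested B cell markers were above 0, with a median of 0.15. None of these processing genes and B cell markers was called.

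The second DKI set without CCL17 had more class II RNA than the DKI libraries that were compared with WT. Both groups are DKI Th17 cultures with no CCL17 added, and which mice, days or runs they come from is not given in the labels. Group and set therefore cannot be told apart, and this comparison bears on how far such cultures differ. It shares the DKI libraries with the WT comparison and the libraries without CCL17 with the CCL17 comparison.

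The chain genes and Cd74 were higher in each of the 3 libraries of the second set than in either DKI library. H2-Aa was at 5.48, 5.77 and 5.75 against 2.01 and 3.81, H2-Ab1 at 5.08, 5.43 and 5.24 against 2.53 and 3.61, and H2-Eb1 at 4.29, 4.67 and 4.76 against 1.86 and 2.94. By summed RPKM of the 3 classical chains the second set was at 95, 120 and 116 and the DKI libraries at 10.5 and 31.0. The libraries with CCL17 were at 110, 98.8 and 107, and WT at 17.8 and 31.4.

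With limma over 11507 genes, 7 of 10 members rose, 0 fell, and 15.4% of all genes were called higher and 17.8% lower (33.2% in all). H2-Aa rose by 2.75 (SE 0.46, limma adjusted p = 0.00285), H2-Ab1 by 2.17 (SE 0.33, adjusted p = 0.00188), H2-Eb1 by 2.17 (SE 0.27, adjusted p = 0.000869) and Cd74 by 2.00 (SE 0.23, adjusted p = 0.000607). H2-DMb1 and Ciita entered the test through the second set, since the DKI libraries did not both reach RPKM of 1, so their direction is in part set by the filter. Of the 8 other members 5 rose. The median difference of the 10 members was 1.13 and that of all genes -0.01. The groups did not overlap for 7 members and for 55.6% of all genes.

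H2-DMb1 rose by 1.39 (SE 0.26, limma adjusted p = 0.00508) and H2-DMb2 by 0.87 (SE 0.14, adjusted p = 0.00235), while H2-DMa was at -0.27 (95% interval -0.82 to 0.28, adjusted p = 0.422). H2-Oa was at -0.56 (-1.30 to 0.18, adjusted p = 0.222) and H2-Ob at -0.64 (-1.28 to -0.01, adjusted p = 0.107). The members that rose therefore did not include the H2-DM alpha chain or either H2-O gene. Without DKI replicate 1, H2-DMa was at -0.77 (adjusted p = 0.00416) and H2-Ob at -1.04 (adjusted p = 0.0295), and without DKI replicate 2 H2-DMa was at 0.23.

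Ciita rose by 0.59 (SE 0.12, limma adjusted p = 0.0079) from 0.61 and 0.57 to 1.05, 1.31 and 1.17. Its call was lost with quantile normalization (0.12, adjusted p = 0.508), in the fit of the 5 libraries alone (0.59, adjusted p = 0.0567) and with the replicate number as a block (0.59, adjusted p = 0.266). H2-DMb2 was also not called with the block (0.83, adjusted p = 0.0863). Over all genes, 1777 were called higher and 2046 lower (46.5% higher), and with quantile normalization 1448 and 2580 (35.9% higher).

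Of 13 processing genes 11 rose and 1 fell, beside 15.4% of all genes called higher and 17.8% lower, and of the 11 whose DKI libraries both reached RPKM of 1, 9 rose and 1 fell. Ctsl rose by 4.19 (limma adjusted p = 4.21e-05), Cd63, which entered through the second set, by 3.91 (4.21e-05), Lgmn by 3.34 (0.000359) and Ctsd by 1.57 (0.000247). Of 19 regulators 4 rose and 4 fell, near the 33.2% called of all genes, and Spi1 and Pax5 entered through the second set. Spi1, which encodes the myeloid and B cell factor PU.1, rose by 3.73 (0.000258) and Pax5, the B cell factor that is also on the B cell list, by 1.66 (0.000373), and the RFX subunit gene Rfxank fell by 0.69 (0.00205) and the kinase gene Jak1 by 0.52 (0.00712), all with limma. Of 12 interferon gamma response genes 0 rose and 2 fell, Gbp4 by 1.37 and Igtp by 0.98, near the 17.8% called lower of all genes.

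Markers of cells other than T cells differed between the same libraries, although all were sorted for CD4+ T cells. The counts of called markers stand beside 15.4% of all genes called higher and 17.8% lower (33.2% in all). The 10 B cell markers that passed the filter were called higher, but 7 of them entered the test through the second set, so their direction is in part set by the filter. Of the 3 whose DKI libraries both reached RPKM of 1, 3 rose, among them Cd79b (2.58). The summed RPKM of all 12 markers was 9.80 to 20.7 in DKI libraries and 75.1 to 117 in the second set. Of 11 monocyte and macrophage markers 9 rose and 1 fell, and of the 8 whose DKI libraries both reached RPKM of 1, 6 rose and 1 fell. Lyz2 rose by 5.91 and Itgam by 3.73, and the sum of the 11 markers was 62.0 to 72.9 against 716 to 1088.

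Of 8 T cell markers 5 fell, beside 17.8% of all genes called lower, with a median of -0.31. Their sum was 2351 in both DKI libraries, by rounding, against 1799 to 1977. Of 8 dendritic cell markers 2 rose and 1 fell, near the 33.2% called of all genes. The 2 that rose, Itgax and Clec10a, entered the test through the second set. Of 3 microglia markers 0 were called. With CCL17 the B cell sum was 102 to 110 and the macrophage sum 694 to 888. The part of B cells and macrophages in the class II difference between sets was not tested.

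**Figure D5:**
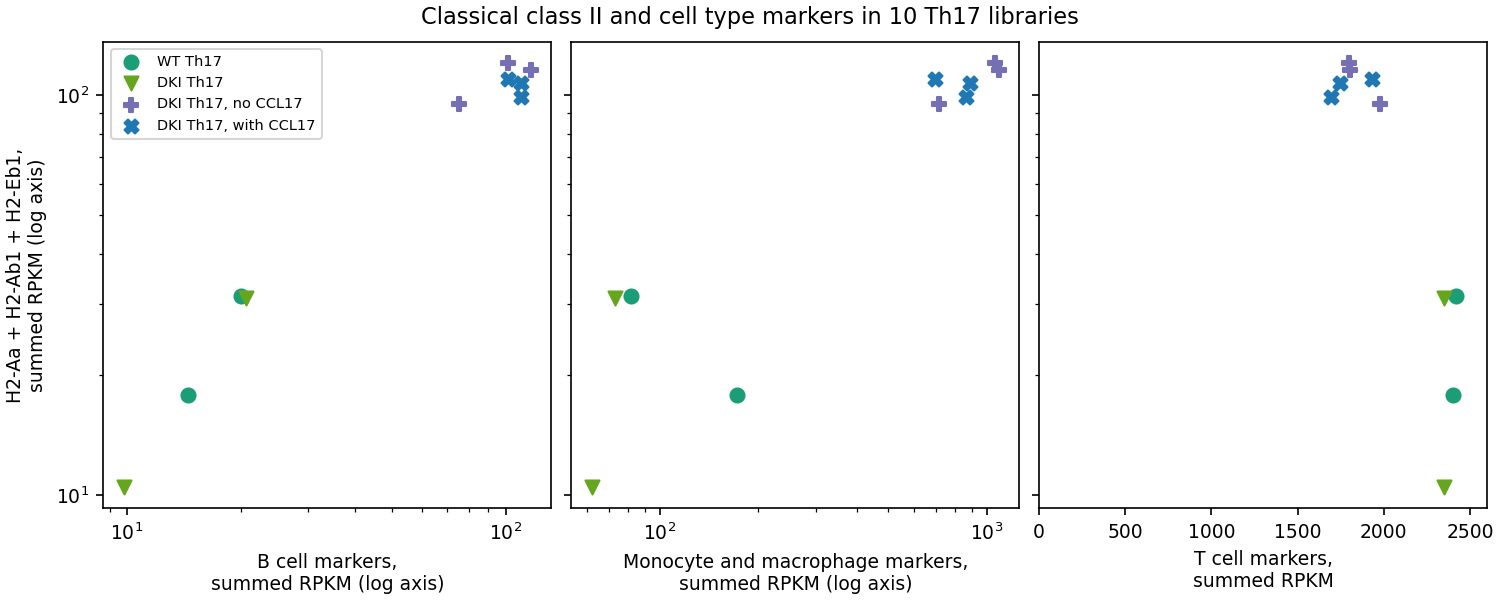
Summed RPKM of H2-Aa, H2-Ab1 and H2-Eb1 (vertical log axis) against the summed RPKM of B cell, macrophage (log axes) and T cell markers in the 10 Th17 libraries, 1 point per library by group. The 6 libraries of the second set lie at B cell sums of 75.1 to 117 and macrophage sums of 694 to 1088, and the WT and DKI libraries at 9.80 to 20.7 and 62.0 to 172.

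Genes with a pattern like that of the classical chains and Cd74 were ranked by Pearson r of log2(RPKM + 1), as a description with no test. Over all 13 libraries the 5 most like their mean, of 12141 genes and leaving the members out, were Ccnd1 (0.992), Sdc1 (0.989), Il1b (0.988), Snx24 (0.985) and Jag1 (0.984). Ciita had 0.980, H2-Oa 0.479 and H2-Ob -0.169. The libraries fall into myeloid and Th17 sets, so these values largely follow the difference between the sets, and libraries of a set are alike in depth.

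Over the 10 Th17 libraries, of 11789 genes, the most like were Ighv1-82 (0.993), Cd79b (0.992), Cd79a (0.992), Igkv8-24 (0.991) and C3 (0.991). Of these, Cd79a and Cd79b encode the B cell receptor's signalling chains, and Ighv1-82 and Igkv8-24 are antibody variable segments. The second set, with and without CCL17, stands apart from the WT and DKI libraries, so values over the Th17 libraries largely follow that difference. Macrophage markers also differed between the same libraries, and the ranking does not tell which cells the class II RNA comes from. H2-DMa had -0.347, H2-Oa -0.821 and H2-Ob -0.617. The genes most like Ciita were Siglece (0.985), Blk (0.984), Cyp4f18 (0.981), Ckap4 (0.981) and H2-Eb2 (0.978). H2-Eb2, a further class II beta gene, was at 0 to 0.24 in WT and DKI libraries, 0.88 to 0.96 in the second set without CCL17 and 1.09 to 1.15 with it, and it reached 0.77 in cord APCs.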

How the data were processed

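Messenger RNA was sequenced in 13 libraries. The submitters' processing notes name Subread, featureCounts and the build mm10. Versions and settings are not given in the sources used here. Values were deposited in log2 units, which the authors made as log2(RPKM + 1), for 21073 genes. The base was checked on the values, and genes without reads, listed at 0.0001, were set to 0. The APC column carries a name for monocyte-derived cells and was matched as the only one left.

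The members and lists were chosen with earlier results of these data known. Tests between Th17 groups used limma 3.58.1 (R 4.3.3, eBayes with trend, Benjamini-Hochberg adjustment over genes tested, called at an adjusted p under 0.05). Genes entered a test if 2 of its libraries (3 for CCL17) reached RPKM of 1. DKI against WT and the comparison of sets were contrasts in 1 fit of the 10 Th17 libraries, and the CCL17 comparison used its own 6. Same-numbered libraries of the CCL17 comparison deviated together (r = 0.77, 0.51 and 0.52), but so did numbers 2 and 3 with each other (0.50 and 0.53), so the values set number 1 apart and do not show pairing by number. The labels state no pairing, and the blocked fit is given as an alternative. On simulated data with log2 shifts of 1, the calls found 61% of shifted genes for DKI against WT, 76% for CCL17 and 82% between sets. The simulation drew independent noise for each library and shifted only genes above a minimum mean level. Real libraries deviated together and some members lie lower, so these shares may be too high for the members.

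Myeloid libraries were compared without a test, among genes that reached RPKM of 5 in 1 or both. Read totals were estimated from the step that 1 read makes in genes with up to 5 reads, of which 74.6% to 76.6% lay within 0.1 of a whole number (20% if spread evenly). Intervals are exact binomial (Clopper-Pearson, 95%). Alternatives changed the pseudocount, filter, normalization, trend, libraries in the fit, block and single libraries. Named genes are all members, up to 4 of each list per comparison (smallest p, or largest difference) and the 5 most like by correlation.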

Additional observations from a re-analysis of the deposited data

How the results depend on the processing

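DKI against WT gave 7 called genes with quantile normalization (1 higher, 6 lower) and 0 to 580 over the fits that left out 1 library. The replicate block called 0. Deviations of same-numbered DKI and WT libraries had r = 0.45, and those of unlike numbers -0.45. With 2 libraries a group the deviations mirror each other, so these values differ only in sign and do not show pairing. Leaving out 1 library turned the direction of several members, none of which was called in the full fit. The log2 differences then ran from -0.42 to 0.41 for Cd74, -1.46 to 0.34 for H2-Aa, -0.74 to 0.34 for H2-Ab1, -0.67 to 0.41 for H2-Eb1, -0.71 to 0.29 for H2-DMa, -0.19 to 0.45 for H2-DMb1, -0.12 to 0.17 for H2-DMb2 and -0.72 to 0.19 for H2-Oa. For CCL17, 2 genes were called with the replicate block, and Cd74 was at 0.064 with quantile normalization. Single-library fits ran from -0.152 to 0.077 for Cd74, -0.143 to 0.0054 for H2-Aa, -0.175 to 0.0043 for H2-Ab1, -0.176 to 0.059 for H2-Eb1, -0.034 to 0.057 for H2-DMa, -0.28 to 0.14 for H2-Oa and -0.082 to 0.273 for H2-Ob. Between sets, 2423 genes were called in the fit of the libraries compared only, 833 with the replicate block (r = 0.13 and 0.10 for the shared numbers) and 2513 to 3526 without 1 library, lowest without replicate 3 of the second set. H2-DMa ran from -0.77 to 0.23. H2-Aa, H2-Ab1, H2-Eb1 and Cd74 kept their calls under every alternative run. H2-DMb1 did too, but it entered the main test through the second set, so its direction is in part set by the filter. For cord against marrow monocytes the members' median was 4.84 with pseudocount 0.1, 4.37 after median centring and 3.66 with no filter. For APCs against cord monocytes 2 members were 4-fold higher with pseudocount 0.1, and the median was 0.93 after centring. The causes were not tested. Depth limits H2-Ob and H2-Oa in marrow monocytes, with 12 and 29 estimated reads.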

Other observations

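Costimulatory and coinhibitory genes, which act beside class II on presenting cells, were called about as often as all genes between the sets of DKI cultures without CCL17. Of 8 such genes 2 rose in the second set and 1 fell by limma, beside 15.4% of all genes called higher and 17.8% lower (33.2% in all). Cd274, the ligand of the inhibitory receptor PD-1, rose by 1.54 (SE 0.46, limma adjusted p = 0.0339), and Pdcd1lg2, its second ligand, by 0.58 (SE 0.11, adjusted p = 0.0052). Icosl, the ligand of the T cell receptor ICOS, fell by 0.92 (SE 0.16, adjusted p = 0.00334). Among the 5 tested neighbours of the class II genes on chromosome 17, the class I peptide transporter gene Tap2 fell by 0.42 (SE 0.10, limma adjusted p = 0.0156) and the others were not called, a share near the 17.8% called lower of all genes, with Tap1 at -0.31, Psmb8 at -0.26 and Psmb9 at -0.19. All 5 neighbours had differences below 0, beside 5912 of 11507 genes. Their median was -0.26, while the median of the 10 class II members was 1.13.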
